A study of Mus musculus with 18 samples.

Results

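Genes that carry, import, activate and sense thyroid hormone were followed in 3 tissues of mice on a high-salt diet, namely *Serpina7*, *Ttr*, *Slc16a10*, *Dio1*, *Thra* and *Thrb*. These 6 of the 21899 genes in the deposited table were selected on measured values, since the rise of *Serpina7* in liver led to the set. Differences between the diets in liver are therefore given as a description with no test for these genes, while eWAT (epididymal white adipose tissue), muscle and the tissues of control mice were tested.

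RNA was sequenced from liver, eWAT and quadriceps muscle, with 3 CON and 3 HSD libraries for each tissue. All mice were male C57BL/6 and 18 weeks old. CON mice received chow and tap water, and HSD mice received a diet with 8% NaCl and 0.9% saline as drinking water for 12 weeks. Libraries are named by diet, mouse and tissue (L for liver, W for eWAT, M for muscle), and the eWAT and muscle libraries came from the same 6 mice (CON16, CON71, CON72, HS2, HS3 and HS5). The liver libraries came from CON14, CON16, CON72, HS2, HS4 and HS5. Values are FPKM, the fragments of a gene scaled by its length and by the library total, so that levels can be compared between genes.

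Thyroid hormone travels in blood bound to carrier proteins made mainly in liver. Thyroxine-binding globulin, the product of *Serpina7*, is a member of the serpin family that binds thyroxine tightly and has lost protease inhibition. Transthyretin, the product of *Ttr*, carries thyroxine and also the retinol-binding protein. Cells take the hormone up through membrane transporters, among them the monocarboxylate transporter of *Slc16a10*, which also moves aromatic amino acids. Type 1 deiodinase, a selenoenzyme encoded by *Dio1* and abundant in liver, converts thyroxine to the active triiodothyronine. The nuclear receptors of *Thra* and *Thrb* bind triiodothyronine and regulate target genes together with retinoid X receptors.

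The promoters of the 2 members whose liver libraries did not overlap between the diets, *Serpina7* and *Slc16a10*, are shown for their sequence context. RefSeq windows of 300 bases (250 before and 50 after the annotated start) were found for 4 of the 6 members, and none was used here for *Ttr* and *Thra*. Matches to a half-site of the liver-enriched factor HNF1 (GTTAAT) and to a TATA box (TATAAA) are in capitals, and both strands were searched. The windows are on build GRCm38.p6, on the minus strand, at chrX:139085187-139085486 and chr10:40142205-40142504, and read 5′ to 3′ in the direction of transcription.
*Serpina7*: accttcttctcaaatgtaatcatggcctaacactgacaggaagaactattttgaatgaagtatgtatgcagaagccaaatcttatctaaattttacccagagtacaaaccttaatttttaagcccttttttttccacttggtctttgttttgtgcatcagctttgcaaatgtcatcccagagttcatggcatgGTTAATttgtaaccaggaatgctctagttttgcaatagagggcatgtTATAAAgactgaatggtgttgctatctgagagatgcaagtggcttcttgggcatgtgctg
*Slc16a10*: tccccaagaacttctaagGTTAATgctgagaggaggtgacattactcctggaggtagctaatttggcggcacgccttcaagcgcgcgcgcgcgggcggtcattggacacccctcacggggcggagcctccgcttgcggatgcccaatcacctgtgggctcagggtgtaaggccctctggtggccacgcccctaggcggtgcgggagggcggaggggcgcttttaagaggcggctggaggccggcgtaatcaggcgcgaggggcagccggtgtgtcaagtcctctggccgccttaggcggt

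In the *Serpina7* window, GTTAAT began at base 194 and TATAAA at base 241. A further RefSeq start lies slightly downstream, and in its window the same letters began at bases 177 and 224. The *Slc16a10* window held GTTAAT at base 19 and no TATA box. The HNF1 half-site was present in 7.20% and the TATA box in 14.2% of 27025 promoter windows of that length. The half-site of the thyroid hormone receptors (AGGTCA) was present in 16.0% of the windows and in neither promoter shown. GC content was 38.3% for *Serpina7* and 65.3% for *Slc16a10*, against a median of 52.7% over all windows. A match of letters is a description and was not tied to binding by any factor.

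Several libraries stood apart from their group. Library totals lay between 7628071 and 16637489 fragments. In liver, mitochondrially encoded genes took 25.7% to 60.9% of the fragments in the CON libraries and 15.4% to 44.4% in the HSD libraries. The highest share was that of CON14L, whose albumin (*Alb*) level of 5154 FPKM was also the lowest of the liver libraries. CON16L held skeletal muscle transcripts, with a sum over 8 markers of 4453 FPKM against 2.45 to 5.73 FPKM in the other liver libraries. HS3W held epididymal transcripts, with a sum over 8 markers of 17923 FPKM against 1.05 to 13.4 FPKM in the other eWAT libraries, and its 8 adipocyte markers summed to 7194 FPKM against at least 16945 FPKM in the others. Male germ cell markers (6 genes) summed to 0.189 to 40.7 FPKM in the CON and 33.0 to 531 FPKM in the HSD libraries of eWAT. Skeletal muscle markers (8 genes) summed to 9.04 to 18.6 FPKM in the CON and 29.4 to 44.9 FPKM in the HSD libraries of eWAT. Each library held the markers of its labelled tissue. All 12 hepatocyte markers were at 1 FPKM or more in every liver library. So were all 8 adipocyte markers in every eWAT library and all 8 skeletal muscle markers in every muscle library. CON16L and HS3W passed this check as well, so it cannot show that a library is free of other tissues. The tables of the study use 15 of the libraries, without CON16L, HS5L and HS5W.

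*Serpina7* (ENSMUSG00000031271, X:139079257-139085236 on mm10, minus strand) showed the widest gap of HSD above CON in liver. Its level was 1.77 FPKM in CON14L, 15.7 in CON16L and 10.0 in CON72L. In the HSD libraries it was 208.7 FPKM in HS2L, 257.3 in HS4L and 79.8 in HS5L. Every HSD library lay above every CON library, on 33 to 446 fragments in CON and 1670 to 6539 in HSD. The mean was 9.15 ± 6.99 FPKM (SD, n = 3) for CON mice and 182.0 ± 91.7 (SD, n = 3) for HSD mice, a 19.9-fold ratio of the means. The difference was 4.49 on the log2(FPKM + 0.5) scale.

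Of the 6 members, 2 had HSD libraries entirely above the CON libraries in liver, and 0 lay entirely below. Among the 10317 genes tested in liver, 8.62% lay entirely above and 3.47% entirely below. The lowest HSD level of *Serpina7* exceeded its highest CON level by 2.31 on the log2(FPKM + 0.5) scale. This gap ranked 1 among these genes for HSD above CON, and gaps in the other direction were not ranked. These counts use the contrast that chose the set and are given as a description.

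*Serpina7* also stood apart relative to other hepatocyte transcripts of the same library. Per 1000 FPKM of *Alb*, the level of *Serpina7* was 0.343 in CON14L, 0.452 in CON16L and 0.384 in CON72L. In the HSD libraries it was 6.05 in HS2L, 6.76 in HS4L and 5.45 in HS5L. The spread within each diet was narrower on this ratio, with 0.393 ± 0.055 (SD, n = 3) in CON and 6.09 ± 0.65 (SD, n = 3) in HSD. CON14L and HS5L, with the lowest *Serpina7* FPKM of their groups, were also the libraries with the lowest *Alb*. Relative to the sum of 11 hepatocyte markers (the list without *Cyp2e1*, which was at 664 FPKM or more in every eWAT library), the log2 difference of *Serpina7* was 4.02, and the gap from the highest CON to the lowest HSD library widened from 2.31 to 3.34. In bulk tissue, fewer cells of a type and less RNA per cell cannot be told apart. The log2 difference was 5.57 over the study's 4 liver libraries, 5.06 without CON16L and 3.65 without CON14L, the lowest value when 1 library was left out.

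**Figure D1:**
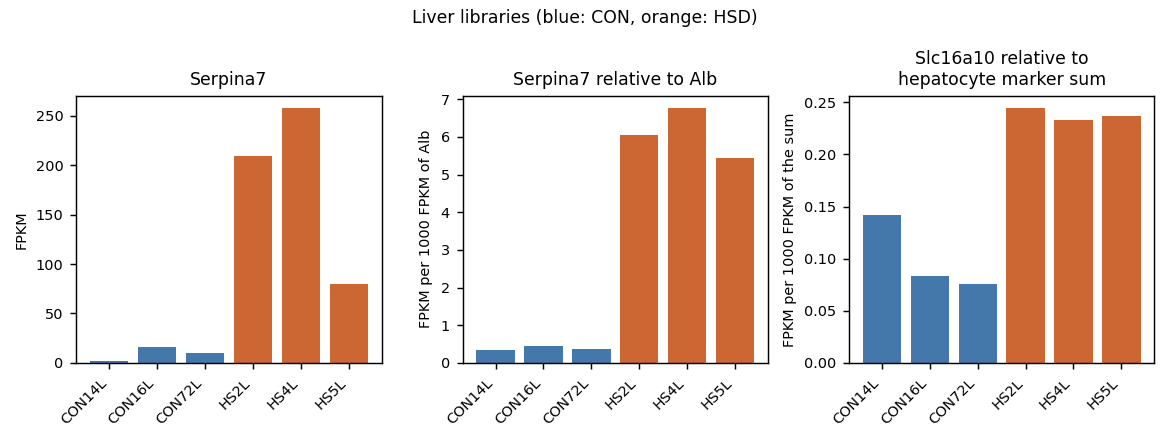
Bars show 1 liver library each, CON in blue and HSD in orange, for *Serpina7* in FPKM (left), *Serpina7* per 1000 FPKM of *Alb* (middle) and *Slc16a10* per 1000 FPKM of the summed hepatocyte markers (right). The HSD libraries of *Serpina7* spread from 79.8 to 257.3 FPKM but only from 5.45 to 6.76 relative to *Alb*, above every CON library on both scales.

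Outside liver, *Serpina7* was close to the floor of the assay. It ranged from 0 to 0.299 FPKM in eWAT and from 0 to 0.220 FPKM in muscle, on 0 to 9 fragments. In these libraries, 3 fragments corresponded to 0.0737 to 0.110 FPKM. No fold change between the diets is given there, and *Serpina7* did not pass the filter of a mean of 0.5 FPKM in either tissue.

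The genes whose pattern over the 6 liver libraries was most like that of *Serpina7* were *Rnase4*, *Trim8*, *Cnn3*, *Sfxn1* and *Nnmt*. *Rnase4*, a secreted ribonuclease, had Pearson's r = 0.998 and Spearman's rho = 0.943 on log2 values, and it ranged from 263 to 715 FPKM. The other 4 had r between 0.992 and 0.994. At this number of libraries 445 of 8705 genes reached r of at least 0.9. Both values of a point come from the same library and share its depth and mitochondrial share.

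*Slc16a10* (ENSMUSG00000019838, 10:40033532-40142258, minus strand) was higher in the HSD libraries of liver, and its HSD libraries also lay above its CON libraries in eWAT and muscle. In liver, it had 2.37 FPKM in CON14L, 6.31 in CON16L and 4.59 in CON72L, against 18.9 in HS2L, 18.9 in HS4L and 8.67 in HS5L. The means were 4.43 ± 1.98 (SD, n = 3) and 15.5 ± 5.90 FPKM (SD, n = 3), a log2 difference of 1.70. Per 1000 FPKM of the hepatocyte marker sum, the HSD libraries lay close together at 0.244, 0.233 and 0.237. The CON libraries had 0.142, 0.0834 and 0.0762, so the groups stayed apart on this ratio as well. Over the study's libraries the log2 difference was 2.34, the highest of the settings tried. It was 1.36 without CON14L and lowest, at 1.22, when scaled to the hepatocyte marker sum.

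In eWAT, *Slc16a10* had 9.10 FPKM in CON16W, 9.44 in CON71W and 11.1 in CON72W. The HSD libraries had 14.8 FPKM in HS2W, 14.0 in HS3W and 11.4 in HS5W. All 3 HSD libraries lay above all 3 CON libraries, with the lowest HSD and the highest CON value close together. The log2 fold change was 0.42 (SE, standard error, 0.14, adjusted p = 0.232 from limma), which did not pass the threshold used for calls (adjusted p under 0.05, and a log2 fold change of 1 or more in size).

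In muscle, *Slc16a10* had 11.01 FPKM in CON16M, 10.5 in CON71M and 9.84 in CON72M, against 13.2 in HS2M, 11.9 in HS3M and 11.6 in HS5M. The order between the diets was that of eWAT, with a smaller log2 fold change of 0.22 (SE 0.11, adjusted p = 0.386 from limma). The difference between the tissues, 0.20 on the log2 scale with a 95% interval from −0.69 to 1.09, did not pass the test (adjusted p = 0.938 from limma). The 6 eWAT libraries share their mice with the muscle libraries, so both tissues are not independent of each other.

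**Figure D2:**
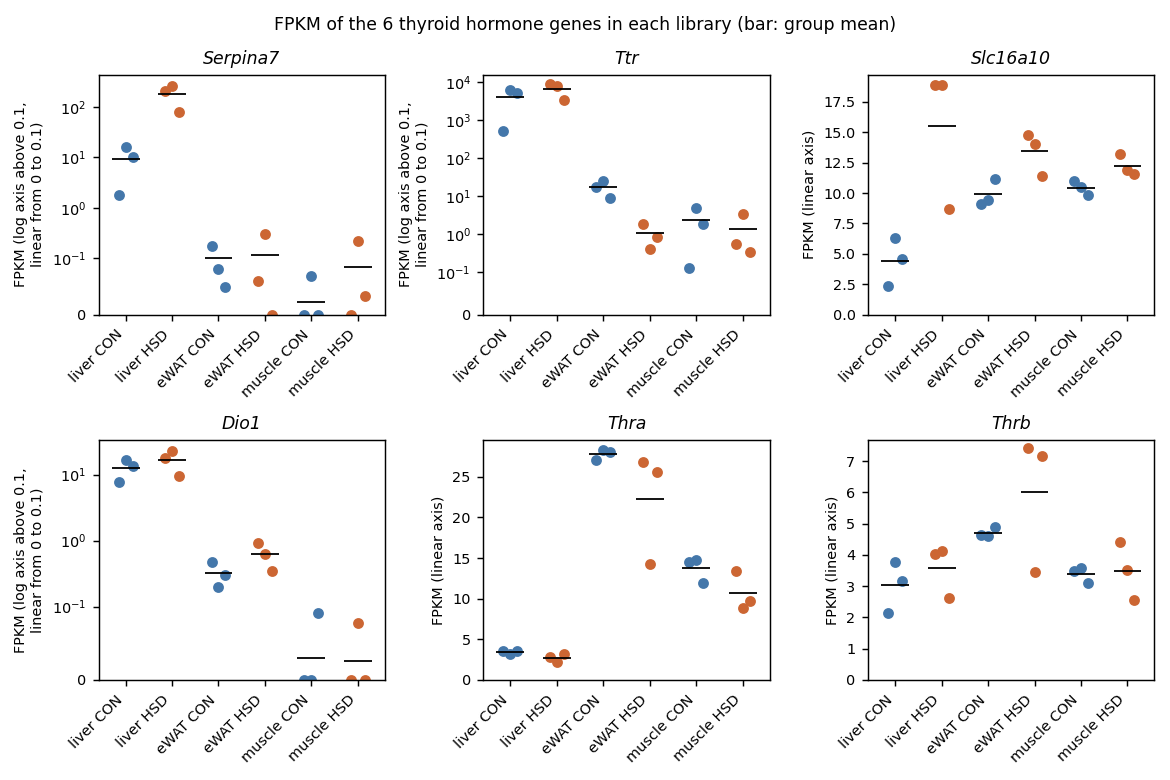
Points show FPKM of each member in each of the 18 libraries, by tissue and diet, and black bars show group means (n = 3). Axes of *Serpina7*, *Ttr* and *Dio1* are logarithmic above 0.1 FPKM and linear below, and the others are linear. *Slc16a10* lay higher in every HSD library than in any CON library of the same tissue, while *Serpina7* and *Dio1* stayed below 1 FPKM outside liver.

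*Ttr* (ENSMUSG00000061808, 18:20665280-20674321, plus strand) was the most abundant member in liver, and it was lower in the eWAT of HSD mice than in that of CON mice without passing the test. In liver, it had 529 FPKM in CON14L, 6190 in CON16L and 5127 in CON72L, against 8988 in HS2L, 7621 in HS4L and 3334 in HS5L. The groups overlapped, with means of 3949 ± 3009 and 6648 ± 2950 FPKM (SD, n = 3 each) and a log2 difference of 1.26. The difference was 0.12 without CON14L and 2.33 over the study's libraries. Per 1000 FPKM of *Alb*, the level of *Ttr* in liver was 103, 178 and 197 in CON14L, CON16L and CON72L, against 261, 200 and 228 in HS2L, HS4L and HS5L. On this ratio every HSD library lay above every CON library, with CON72L and HS4L close together.

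In eWAT, *Ttr* had 17.8 FPKM in CON16W, 24.6 in CON71W and 9.22 in CON72W. The HSD libraries had 1.92 FPKM in HS2W, 0.411 in HS3W and 0.838 in HS5W, on 6 to 31 fragments. Every HSD library lay below every CON library. The log2 fold change was −3.52 (SE 0.48, 95% interval −4.70 to −2.35), with an unadjusted p of 0.00034 and an adjusted p of 0.104 from limma. *Ttr* was called without HS3W (log2 fold change −3.19, adjusted p = 0.0244 from limma). It was also called with limma's arrayWeights, which weight each library by its spread (−3.08, adjusted p = 0.0163 from limma). These settings called 160 of 13245 and 220 of 13740 genes. Each also called 10 of 12 hepatocyte markers as lower and 1 as higher. Across all alternatives the adjusted p of *Ttr* from limma lay between 0.0163 and 0.504.

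Hepatocyte transcripts moved with *Ttr* in eWAT. The sum of 11 hepatocyte markers was 120 to 342 FPKM in the CON libraries of eWAT and 9.95 to 16.9 FPKM in the HSD libraries. *Alb*, an abundant liver transcript, had 108 FPKM in CON16W, 167 in CON71W and 53.9 in CON72W, against 7.85 in HS2W, 3.30 in HS3W and 5.87 in HS5W. Per 1000 FPKM of *Alb*, the level of *Ttr* was 165, 147 and 171 in the CON libraries and 244, 125 and 143 in the HSD libraries, so the diets overlapped on this ratio. The list holds 12 hepatocyte markers, of which 10 lay entirely below CON in the HSD libraries of eWAT, against 12.4% of genes tested there. The filter took the mean over both diets, so a marker could pass it through CON alone. Of the markers, 10 to 12 were at 1 FPKM or more in the CON libraries against 3 to 5 in the HSD libraries. None was at 0 in the eWAT libraries except 1 in HS5W. The genes most like *Ttr* over the 6 eWAT libraries were *Apoa1* (Pearson's r = 0.998, Spearman's rho = 1), *Mest*, *Mup3*, *Alb* and *Mup7*, and 372 of 12421 genes reached r of at least 0.9.

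In muscle, *Ttr* was low and uneven. It had 0.127 FPKM in CON16M, 4.98 in CON71M and 1.81 in CON72M, against 0.570 in HS2M, 3.31 in HS3M and 0.340 in HS5M. The groups overlapped, and the log2 fold change was −0.40 (SE 0.74, adjusted p = 0.832 from limma). Per 1000 FPKM of *Alb*, it lay between 149 and 395 in the muscle libraries. The diet difference of *Ttr* in eWAT minus that in muscle was −3.12 on the log2 scale (95% interval −5.86 to −0.37), which did not pass the adjustment over all genes (adjusted p = 0.567 from limma).

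**Figure D3:**
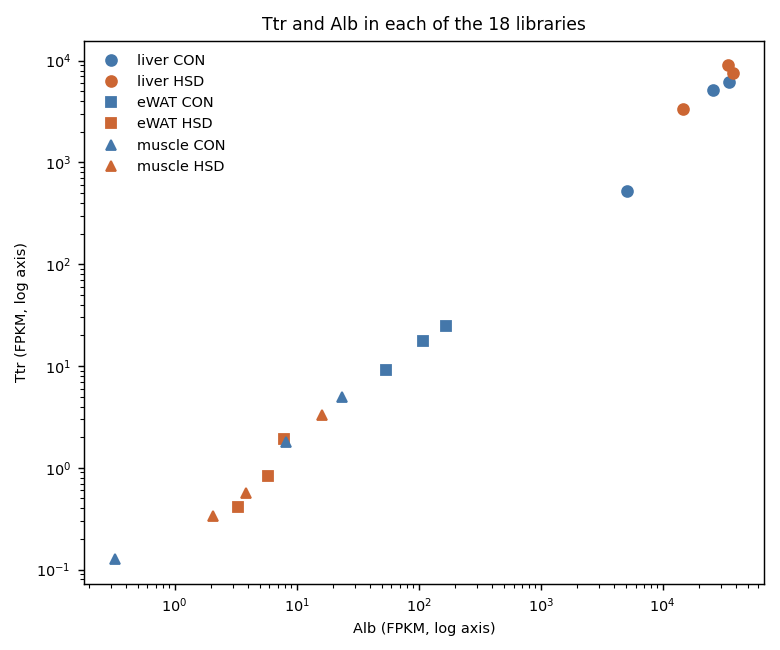
Each point is 1 of the 18 libraries, with *Alb* on the horizontal and *Ttr* on the vertical axis, both in FPKM on logarithmic axes. Shapes mark tissue and colours mark diet, and the HSD libraries of eWAT lie at 3.30 to 7.85 FPKM of *Alb* beside the muscle libraries, below the CON libraries of eWAT on both axes.

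*Dio1* (ENSMUSG00000034785, 4:107291465-107307169, minus strand) was a liver gene in these data and overlapped between the diets there. It had 7.59 FPKM in CON14L, 16.8 in CON16L and 13.6 in CON72L, against 17.5 in HS2L, 22.5 in HS4L and 9.50 in HS5L. The means were 12.7 ± 4.68 and 16.5 ± 6.55 FPKM (SD, n = 3 each), a log2 difference of 0.36. It was 0.04 without CON14L, 0.10 without HS4L, 0.93 over the study's libraries and −0.16 when scaled to the hepatocyte marker sum. Per 1000 FPKM of the hepatocyte marker sum, the CON libraries had 0.455, 0.222 and 0.225 and the HSD libraries 0.226, 0.278 and 0.260. *Dio1* ranged from 0.201 to 0.930 FPKM in eWAT on 6 to 25 fragments, and from 0 to 0.0908 FPKM in muscle on 0 to 2 fragments. It did not pass the filter on low values in either tissue.

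The receptors were expressed in all 3 tissues. *Thra* (ENSMUSG00000058756, 11:98740638-98769006, plus strand) had 3.55 FPKM in CON14L, 3.13 in CON16L and 3.60 in CON72L, against 2.85 in HS2L, 2.17 in HS4L and 3.14 in HS5L. The liver groups overlapped by a narrow margin, with means of 3.43 ± 0.26 and 2.72 ± 0.50 FPKM (SD, n = 3 each).

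In eWAT, *Thra* had 27.0 FPKM in CON16W, 28.2 in CON71W and 28.0 in CON72W, against 26.8 in HS2W, 14.3 in HS3W and 25.6 in HS5W. The HSD libraries lay below the CON libraries, and the epididymal library HS3W was far below the other 2. The log2 fold change was −0.37 (SE 0.25, adjusted p = 0.469 from limma) and −0.08 without HS3W. In muscle, *Thra* had 14.6 FPKM in CON16M, 14.7 in CON71M and 12.0 in CON72M, against 13.4 in HS2M, 8.91 in HS3M and 9.70 in HS5M. The groups overlapped, and the log2 fold change of −0.37 did not pass (SE 0.16, adjusted p = 0.303 from limma).

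*Thrb* (ENSMUSG00000021779, 14:17660261-18038090, plus strand) had 2.13 FPKM in CON14L, 3.78 in CON16L and 3.18 in CON72L, against 4.03 in HS2L, 4.11 in HS4L and 2.61 in HS5L. In eWAT, it had 4.64 FPKM in CON16W, 4.602 in CON71W and 4.91 in CON72W, against 7.42 in HS2W, 3.46 in HS3W and 7.16 in HS5W. HS3W was the only eWAT library of HSD mice below the CON libraries. The log2 fold change in eWAT was 0.25 (SE 0.28, adjusted p = 0.622 from limma) and 0.58 without HS3W (adjusted p = 0.0244 from limma, under the fold threshold). In muscle, *Thrb* had 3.48, 3.58 and 3.12 FPKM in CON16M, CON71M and CON72M, against 4.41, 3.52 and 2.55 in HS2M, HS3M and HS5M. The muscle groups overlapped, with a log2 fold change of 0.01 (95% interval −0.37 to 0.40, adjusted p = 0.984 from limma).

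The ratio of *Thra* to *Thrb* within a library does not depend on the scaling of libraries. Its mean was lower in HSD than in CON in all 3 tissues, and the groups did not overlap in eWAT and muscle. This ratio was chosen after the values were seen. In eWAT, the ratio was 5.82 in CON16W, 6.14 in CON71W and 5.71 in CON72W, against 3.61 in HS2W, 4.13 in HS3W and 3.57 in HS5W. HS3W was the highest HSD library on this ratio and still below every CON library, although it was the lowest of the eWAT libraries for each receptor alone. In muscle, it was 4.19 in CON16M, 4.12 in CON71M and 3.83 in CON72M, against 3.03 in HS2M, 2.53 in HS3M and 3.80 in HS5M. The highest HSD value and the lowest CON value of muscle were close together. The log2 difference was −0.65 in eWAT and −0.39 in muscle, each with p = 0.1 in a 2-sided exact permutation test, the smallest p that 3 against 3 libraries can give. With muscle libraries paired by replicate number, the exact permutation p was 0.25, the smallest that 3 pairs can give. Groups that do not overlap always give these smallest values. For a ratio chosen after such values were seen, the tests add no support. In liver, where no test was made, the ratio ranged from 0.829 to 1.67 in CON and from 0.528 to 1.20 in HSD. Its liver means were 1.21 and 0.813, and the log2 difference of −0.60 had the same direction.

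**Figure D4:**
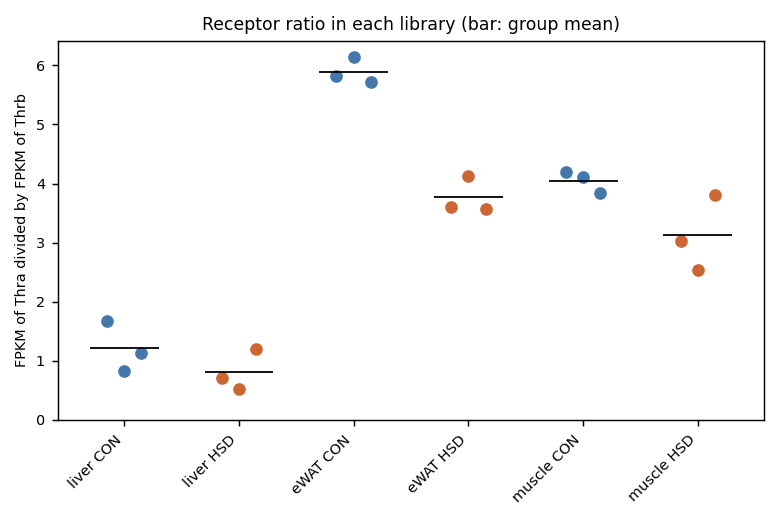
Points show FPKM of *Thra* divided by FPKM of *Thrb* in each library, by tissue and diet, and black bars show group means (n = 3). The eWAT means were 5.89 in CON and 3.77 in HSD, and the muscle means 4.05 and 3.12. The liver groups overlapped, with means of 1.21 and 0.813.

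*Thra* overlaps *Nr1d1*, a clock repressor gene on the opposite strand, by 263 exonic bases. The strand setting of the counting is not given in the sources used here, so reads of that stretch may belong to either gene. *Nr1d1* had 67.6 to 84.4 FPKM in the CON libraries and 50.3 to 115 FPKM in the HSD libraries of eWAT, with a log2 fold change of 0.10 (adjusted p = 0.874 from limma). In muscle, its log2 fold change was −0.21 (adjusted p = 0.475 from limma), and in liver 0.82 (adjusted p = 0.764 from limma).

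Counted over all members, 4 of the 6 passed the filter on low values in eWAT and 4 in muscle. None was called by limma in either tissue. In eWAT, 0 of 13740 genes were called (0%), and 2 of the 4 members, *Ttr* and *Slc16a10*, had an unadjusted p under 0.05, as did 16.7% of all genes tested. One member lay entirely above CON, against 16.2% of all genes, and 2 lay entirely below, against 12.4%. In muscle, 35 of 10834 genes were called (0.323%), or 54 with the replicate number as a block, and 1 member (*Thra*) had an unadjusted p under 0.05, against 16.3% of all genes. *Slc16a10* was the 1 member entirely above CON in muscle, against 6.72% of genes, and 0 members lay entirely below, against 15.6%. In the test of the eWAT against the muscle difference, 0 of 13067 genes were called (0%) and 1045 had an unadjusted p under 0.05 (8%), among them 1 of the members, *Ttr*.

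**Figure D5:**
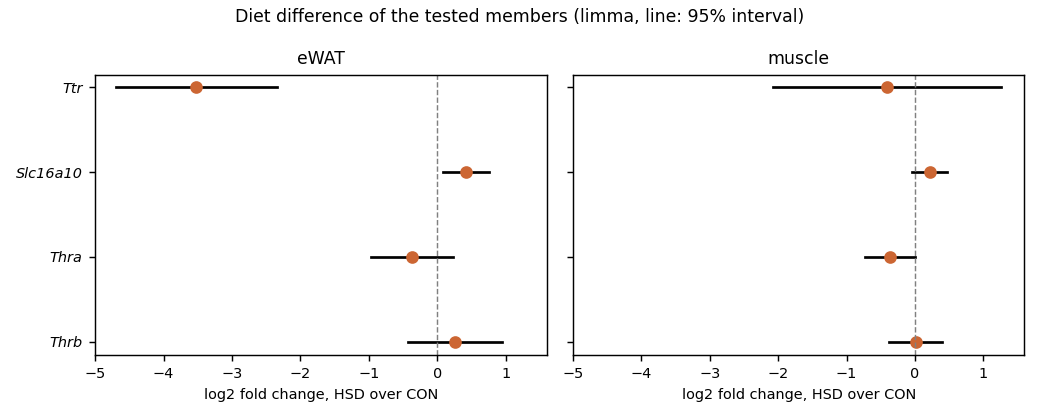
Points show the log2 fold change of HSD over CON from limma for the 4 members tested in eWAT (left) and muscle (right), and lines show 95% intervals. The interval of *Ttr* in eWAT runs from −4.70 to −2.35, while those of *Thra* and *Thrb* in eWAT and of *Slc16a10*, *Thrb* and *Ttr* in muscle include 0.

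Between the tissues of CON mice, the carriers and the deiodinase were highest in liver, and *Thra* was lowest there. *Serpina7* and *Dio1* passed the filter only through their liver values and get no test between tissues. Their CON libraries had 1.77 to 15.7 and 7.59 to 16.8 FPKM in liver, against at most 0.178 and 0.475 FPKM in eWAT and 0.0690 and 0.0908 FPKM in muscle. Of the other 4 members, 3 were called between liver and eWAT (69.4% of 12637 genes), 3 between liver and muscle (50.1%) and 1 between eWAT and muscle (54.9%). *Ttr* was higher in liver than in eWAT by 7.28 (adjusted p = 0.00011 from limma) and than in muscle by 10.3 on the log2 scale (adjusted p = 2.04e-05). *Thra* was lower in liver by 2.85 than in eWAT and by 1.86 than in muscle, and these calls of *Ttr* and *Thra* held under every alternative tried.

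The order of the tissues was less certain for the other members. *Slc16a10* was lower in liver than in eWAT by 1.16 (adjusted p = 0.0034 from limma) and than in muscle by 1.24 on the log2 scale, but after median-ratio scaling its liver to eWAT difference was 0.37 and not called. Without CON14L its liver differences were −0.81 against eWAT and −0.89 against muscle, under the fold threshold. That scaling moved the median difference of all genes between liver and eWAT from −1.36 to 0.03. *Thrb* lay within a narrow range in the 3 tissues, with CON means of 3.03 ± 0.84 in liver, 4.72 ± 0.17 in eWAT and 3.39 ± 0.24 FPKM (SD, n = 3) in muscle. Its liver to eWAT difference of −0.59 had an adjusted p of 0.0114 from limma under the fold threshold, and it turned to 0.86 after median-ratio scaling. *Thra* differed between eWAT and muscle by 0.99 (adjusted p = 2.0e-04 from limma), just under the fold threshold, and by −0.003 after median-ratio scaling. *Ttr* was called between eWAT and muscle (3.04, adjusted p = 0.0224 from limma), but not without CON16W, CON71W or CON16M, where the adjusted p lay between 0.0579 and 0.0891, nor after median-ratio scaling (2.12, adjusted p = 0.0985 from limma), and the hepatocyte markers differed with it.

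Within liver, the levels of CON mice ran from *Ttr* (3949 ± 3009 FPKM) over *Dio1* (12.7 ± 4.68), *Serpina7* (9.15 ± 6.99), *Slc16a10* (4.43 ± 1.98) and *Thra* (3.43 ± 0.26) to *Thrb* (3.03 ± 0.84, SD, n = 3 each). Neighbours below *Ttr* in this order differed by less than their spread. In the HSD group, *Serpina7* stood next after *Ttr*, at 182.0 ± 91.7 FPKM, and its range did not overlap that of *Dio1*.

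Other genes of the pathway were listed by role. Of 10 other thyroid hormone transporters, 7 were tested in liver, 0 were called and 6 had a positive difference. Their median log2 fold change was 0.67, against 0.13 over all genes and 0.97 over the hepatocyte markers. At an unadjusted p under 0.05 there were 2 higher and 1 lower, where 5.74% of all liver genes reached it and 0 of 10317 (0%) were called. *Slco1a4*, an organic anion transporter, had 4.13, 4.599 and 4.12 FPKM in CON14L, CON16L and CON72L, against 14.0, 11.5 and 18.5 in HS2L, HS4L and HS5L. Its groups did not overlap, and the log2 fold change was 1.64 (SE 0.26, adjusted p = 0.550 from limma). In eWAT, the transporter with the largest difference, *Slc7a5*, was at 167 FPKM in HS3W and between 1.51 and 4.003 FPKM in the other libraries.

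Of 8 genes of other deiodinases and hormone metabolism, 6 were tested in liver, and 0 were called. All 6 differences were positive, with a median of 0.66 against 0.97 over the hepatocyte markers. *Ugt1a1*, which conjugates bilirubin and thyroxine for excretion, had 0.0589, 0.657 and 0.492 FPKM in CON14L, CON16L and CON72L, on 1 to 17 fragments. The HSD libraries HS2L, HS4L and HS5L had 2.11, 2.30 and 0.999 FPKM, all above CON (log2 fold change 1.36, adjusted p = 0.764 from limma). In muscle, 2 genes of this list were tested and none was called, with *Crym*, which binds thyroid hormone in the cytosol, at 0.34 (adjusted p = 0.307 from limma). In eWAT, 3 were tested and none was called, with *Iyd*, which recovers iodide from iodinated tyrosines, at 0.45 (adjusted p = 0.750 from limma).

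Among 12 receptor partners and coregulators, all were tested in each tissue and none was called, with medians of 0.06 in liver, 0.10 in eWAT and −0.06 in muscle, near those of all genes (0.13, 0.08 and −0.06). The largest differences were 0.63 for *Rxra* in liver, 0.58 for the corepressor *Ncor1* in eWAT and −0.27 for the coactivator *Ncoa1* in muscle.

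Of 11 thyroid hormone target genes, 10 were tested in liver, 10 in eWAT and 8 in muscle, and none was called. *Thrsp*, a lipogenic gene that responds to thyroid hormone and to feeding, had the largest difference of the list in all 3 tissues, at −2.77 in liver, −1.75 in eWAT and −0.67 in muscle. In liver, *Thrsp* was called over the study's libraries (−3.84, adjusted p = 0.0131 from limma), where 35 of 9970 genes were called. It was also called there with arrayWeights (−4.08, adjusted p = 1.3e-05 from limma), a setting that called 926 of 10317 genes. In that setting 7414 genes had an unadjusted p under 0.05 from limma, and 2 of the targets were called higher and 3 lower. In eWAT, *Thrsp* was called with arrayWeights (−1.34, adjusted p = 0.0472 from limma), where 220 of 13740 genes were called. In muscle it had 8.89, 13.2 and 10.3 FPKM in CON16M, CON71M and CON72M, against 3.98, 6.47 and 10.5 in HS2M, HS3M and HS5M, and the groups overlapped. Of the tested targets, 6 of 10 had a positive difference in liver (median 0.15), 2 of 10 in eWAT (median −0.45) and 5 of 8 in muscle (median 0.20).

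Of 13 other clade A serpins, the family of *Serpina7*, 11 were tested in liver, and none was called. Their median was 0.66, against 0.97 over the hepatocyte markers. The largest difference was that of *Serpina3m* (1.48, adjusted p = 0.764 from limma), below the 4.49 of *Serpina7*. In eWAT, all 9 tested serpins lay entirely below CON in the HSD libraries with a median of −2.78, and all 9 had an unadjusted p under 0.05, yet 0 were called. Among all genes tested in eWAT, 12.4% lay entirely below CON and 16.7% had an unadjusted p under 0.05. The filter took the mean over both diets. *Serpina1b*, *Serpina1c* and *Serpina1d* passed it through CON alone (means 8.27, 1.75 and 7.50 FPKM), with HSD means of 0.485, 0.130 and 0.339 FPKM. The count and the median of the serpins are therefore not independent of the filter. Without HS3W, 8 of the 9 were called, all downregulated, and 160 of the 13245 genes tested were called in either direction. *Serpina1e* showed the largest difference, from 28.9, 32.8 and 8.55 FPKM in CON16W, CON71W and CON72W to 0.680, 0.352 and 0.662 in HS2W, HS3W and HS5W (log2 fold change −4.30, adjusted p = 0.0884 from limma). Near-identical members of this family may share reads, so their single values are uncertain.

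Among 6 other plasma carrier proteins, all 6 differences were positive in liver (median 1.00) and all 5 tested were negative in eWAT (median −2.80), with none called. In eWAT, *Gc* and *Ambp* passed the filter through CON alone, with HSD means of 0.476 and 0.417 FPKM. *Rbp4*, the retinol carrier that binds transthyretin, had a log2 fold change of 1.35 in liver (adjusted p = 0.764 from limma), and *Gc*, the vitamin D carrier, had −3.63 in eWAT (adjusted p = 0.114 from limma). Hepatocyte markers had medians of 0.97 in liver and −2.36 in eWAT, with 11 of 12 positive in liver and 11 of 12 negative in eWAT. A marker could pass the eWAT filter through CON alone, so its eWAT count and median may depend on the filter. The part of hepatocyte RNA in the eWAT differences of *Ttr*, the serpins and the carriers was not tested. Over all lists and the 3 tissues, the 1 gene called between the diets was *Myh1*, a fast myosin among the skeletal muscle markers, with a log2 fold change of −1.01 in muscle (adjusted p = 0.0453 from limma).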

How the data were processed

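The deposited file holds 1 table of FPKM for 18 libraries, 3 per tissue and diet. RNA was depleted of rRNA and made into stranded libraries. After trimming with cutadapt and alignment to mm10 with hisat2, the authors obtained FPKM from cuffdiff. The labels also name HTSeq 0.9.1 and mm9. The annotation release and any filter are not given in the sources used here. FPKM gave whole fragments (tolerance 0.05) for 18359 of 18789 genes above 0 in all libraries at GENCODE M21 exon length, which gave the depth.

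Each tissue was fitted by limma 3.58.1 (R 4.3.3) with log2(FPKM + 0.5) as response and diet as factor, over genes whose mean reached 0.5 FPKM, with a variance trend and Benjamini-Hochberg adjustment over all genes. The 9 CON libraries were fitted by tissue, and the difference between eWAT and muscle in all 18. Calls needed an adjusted p under 0.05 and a log2 fold change of 1 or more in size. All p-values are 2-sided. Within a tissue, replicates are libraries of separate mice. CON16 and CON72 gave libraries of every tissue, so libraries in the fits over tissues are not independent. The main fits have no term for the mouse. DESeq2, used by the authors, needs counts, and it was not run on the fragments recovered from FPKM. Scripts were tested on simulated data, and Python 3.11.15 with scipy 1.17.1 was used.

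The members and lists were chosen with earlier results of these data known. Named genes are the members, the called genes of each list or else its largest difference at a mean of at least 1 FPKM, *Nr1d1*, and the 5 genes most like *Serpina7* in liver and *Ttr* in eWAT, of which 1 gene is not reported here. Other settings were another pseudocount (0.1 or 1), another filter (none, or a mean of 1 FPKM), median-ratio scaling, mitochondrial genes left out, all libraries in 1 fit, the replicate number or mouse as a block, arrayWeights, each library left out and the study's libraries alone. Scaling to hepatocyte markers and the paired test of the receptor ratio were added after the data were seen. As a check of pairing, deviations from group means were correlated between a CON and an HSD library sharing a number. These were 0.383, 0.177 and 0.184 in muscle, −0.197, 0.061 and 0.414 in eWAT and −0.473, 0.396 and −0.213 in liver. Muscle libraries of different number gave −0.347 to 0.180, so a pairing by number was not established.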

Additional observations from a re-analysis of the deposited data

How the results depend on the processing

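With 3 libraries a group, an exact permutation test cannot go below p = 0.1, and values of *Ttr* in HSD eWAT rest on 6 to 31 fragments. Counts of called genes varied with the setting. In eWAT, against 0, there were 161 with all 18 libraries in 1 fit, 220 with arrayWeights, which also called 1 member (*Ttr*), and 0 to 160 genes with 0 to 1 member when a library was left out. In muscle, against 35, there were 7 without a filter, 5 with all libraries in 1 fit, 54 with the replicate block and 10 to 61 with a library left out. In liver, against 0, there were 41 with all libraries in 1 fit, 926 with arrayWeights, 35 with the study's libraries, 1 scaled to hepatocyte markers and 0 to 1 with a library left out. Between liver and eWAT of CON mice, against 8768, there were 5189 after median-ratio scaling. Between eWAT and muscle, 0 to 2 members were called with a library left out. For the difference of the diet effects, against 0, there were 19 with a pseudocount of 1, 2 after median-ratio scaling, 170 with the study's libraries and 0 to 145 with a library left out. The cause of these changes was not tested.

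With the replicate block, *Ttr* in eWAT had −3.52 (adjusted p = 0.306 from limma), and no call of a member changed with this block. Several signs changed. In liver, *Dio1* turned from 0.36 to −0.16 scaled to hepatocyte markers and −0.0046 without mitochondrial genes, and *Thrb* from 0.22 to −0.25 and −0.11. *Thrb* in muscle turned from 0.01 to −0.0095 without mitochondrial genes and −0.147 with arrayWeights, and ranged from −0.151 to 0.192 with a library left out. *Ttr* in muscle, at −0.40, ranged from −1.24 to 0.325 with a library left out. After median-ratio scaling, liver against eWAT was 0.371 for *Slc16a10* and 0.863 for *Thrb*, liver against muscle was 0.395 for *Thrb*, and eWAT against muscle was −0.469 for *Thrb* and −0.0030 for *Thra*. Without mitochondrial genes, *Thrb* had 0.0737 against eWAT and 0.356 against muscle, and with a library left out −0.323 to 0.0286 against muscle. In the difference of the diet effects, *Thra* had −0.0042 with a pseudocount of 1, −0.160 after median-ratio scaling and −0.123 with the study's libraries. With a library left out, *Thra* ranged from −0.156 to 0.285.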
